A study of Mus musculus with 16 samples.

Results

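The TNF superfamily genes examined here were the protein-coding mouse genes whose symbol starts with Tnfsf (ligands) or Tnfrsf (receptors). They numbered 32 of the 21851 protein-coding genes with an annotated start site, 12 ligands and 20 receptors. All were read in 4 lists of H3K27ac ChIP-seq peaks from bone marrow-derived macrophages (BMDMs), which were grown in culture from the marrow of C57Bl6 mice aged 8 to 12 weeks. The 4 conditions were untreated cells (Control), cells given IFNγ at 100 ng/mL for 1 h, cells given the PARP inhibitor PJ34 at 20 µM, and cells given both, with PJ34 added 1 h before IFNγ (IFNγ+PJ34). Each condition had 2 ChIP samples and 2 input samples, and the deposited list of a condition was made from both replicates. No measure therefore has a replicate error here, no test between conditions was possible, and every difference below is a difference between 2 lists. How many animals stood behind a condition is not given in the sources used here, and the lists hold no read counts, so their depth is unknown.

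H3K27ac is an acetyl mark on histone H3 that is found at active promoters and enhancers. IFNγ is a cytokine that activates macrophages, and PJ34 inhibits PARP enzymes such as PARP-1, which attach ADP-ribose to proteins in the nucleus. TNF superfamily ligands are mostly membrane-bound trimers, and their receptors signal either through death domains or through TRAF adaptors to NF-κB. Macrophages use TNFR1 and TNFR2 to answer TNF, RANK to become osteoclasts, and ligands such as OX40L, 4-1BBL, GITRL, CD30L, LIGHT, APRIL and BAFF to signal to T cells and B cells.

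Some peaks near members were in the IFNγ and IFNγ+PJ34 lists and in neither list without IFNγ. The sequences of the 3 highest by score percentile are shown first, because the account of these loci returns to them. Each is the 300 bases centred on the summit called in IFNγ, read on the plus strand of mm10, and capitals mark the 10 bases at the summit. None of these windows overlaps an annotated exon.

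Tnfrsf1a, -3.64 kb region, chr6:125345953-125346252: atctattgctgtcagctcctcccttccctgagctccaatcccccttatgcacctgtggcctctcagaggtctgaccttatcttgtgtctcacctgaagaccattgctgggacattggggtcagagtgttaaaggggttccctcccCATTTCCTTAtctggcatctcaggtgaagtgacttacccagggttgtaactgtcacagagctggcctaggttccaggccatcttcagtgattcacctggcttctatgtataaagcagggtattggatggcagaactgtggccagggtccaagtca
Tnfrsf12a, 23.5 kb region, chr17:23653811-23654110: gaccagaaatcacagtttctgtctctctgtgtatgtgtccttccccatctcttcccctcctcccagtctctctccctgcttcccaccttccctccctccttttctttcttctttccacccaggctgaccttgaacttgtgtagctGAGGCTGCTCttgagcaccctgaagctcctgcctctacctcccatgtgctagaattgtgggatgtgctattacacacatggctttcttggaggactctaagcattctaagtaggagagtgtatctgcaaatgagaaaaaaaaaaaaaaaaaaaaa
Tnfsf10, -44.2 kb region, chr3:27272724-27273023: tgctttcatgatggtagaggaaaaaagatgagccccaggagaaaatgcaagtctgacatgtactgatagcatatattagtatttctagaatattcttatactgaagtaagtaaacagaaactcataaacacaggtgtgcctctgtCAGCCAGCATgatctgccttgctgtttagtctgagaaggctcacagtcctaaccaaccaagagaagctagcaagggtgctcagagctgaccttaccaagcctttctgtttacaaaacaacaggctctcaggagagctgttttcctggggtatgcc

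Distances are in kb from the nearest start site of the named gene along its direction of transcription, and negative values lie upstream. These IFNγ peaks were repeat-masked in the reference genome over 29.2% of their length at Tnfrsf1a, 45.6% at Tnfrsf12a and 28.9% at Tnfsf10.

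A promoter peak was called at Tnfsf18 only in IFNγ+PJ34, and the 250 bases before its RefSeq start are shown with TATAAA in capitals. RefSeq promoters (GRCm38.p6, the same coordinates as mm10) were matched by symbol for 25 of the 32 members.

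Tnfsf18, upstream, plus strand, chr1:161494407-161494656: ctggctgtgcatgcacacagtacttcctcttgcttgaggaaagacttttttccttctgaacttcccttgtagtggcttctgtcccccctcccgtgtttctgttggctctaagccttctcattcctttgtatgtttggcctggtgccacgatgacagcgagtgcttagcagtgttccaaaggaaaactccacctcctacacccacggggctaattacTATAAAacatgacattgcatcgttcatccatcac

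TATAAA on either strand was found in 12.4% of the 250-base windows upstream of all 32851 RefSeq promoters and in 4 of the 29 member promoters (13.8%). The Tnfsf18 match began 34 bases before the RefSeq start. The annotation used for distances places the gene start at 161494655, so the end of this window overlaps 1 annotated exon.

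Most of these genes lay in acetylated surroundings. In each of the 4 lists, 29 of the 32 members (90.6%) had a peak summit within 50 kb of a start site, against between 70.6% and 71.5% of all protein-coding genes. The same 3 members had no peak in any list, namely Tnfsf11 (RANKL, the osteoclast-inducing ligand), Tnfrsf11b (osteoprotegerin, its soluble decoy) and Tnfrsf19 (TROY). With 0 peaks in these windows, nothing can be said of signal below the calling threshold. Distinct peaks near members numbered 164 in Control, 190 with IFNγ, 186 with PJ34 and 207 with both agents, while the whole lists held 43533, 40708, 44090 and 42960 peaks. The median member had 5, 7.5, 6 and 6.5 peaks in these lists, and the median gene 3, 2, 3 and 3. Peaks around members were wider in Control than in the other lists, with median widths of 832, 576, 602 and 619 bp against 732, 647, 647 and 634 bp over whole lists.

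The lists were those of macrophages by their promoters. All 10 macrophage markers examined (among them Csf1r, Adgre1 and Spi1) had a promoter peak in every list. None of the 5 T cell or 5 fibroblast markers did, 1 of 5 B cell markers did in each list, and 3, 2, 2 and 3 of the 5 dendritic cell markers did in Control, IFNγ, PJ34 and IFNγ+PJ34. Of 5 granulocyte markers, 1 had a promoter peak in each list except IFNγ+PJ34, where 0 did.

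**Figure D1:**
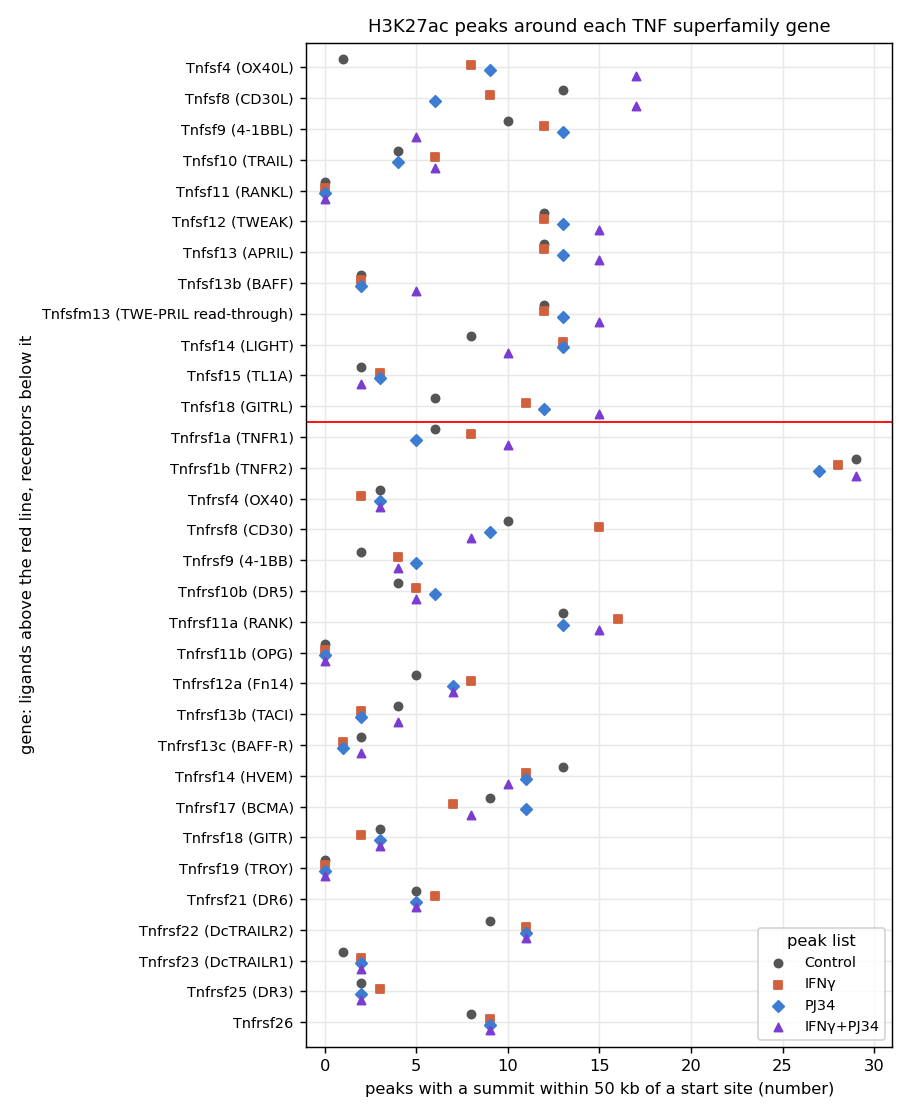
Number of H3K27ac peaks with a summit within 50 kb of a start site (horizontal axis) for each of the 32 genes (vertical axis, ligands above the red line), with 1 symbol per peak list and no error bars because each condition has 1 list. Tnfsf4 goes from 1 peak in Control to 17 in IFNγ+PJ34, Tnfsf9 falls to 5 in IFNγ+PJ34, and Tnfrsf1b holds between 27 and 29 in every list.

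Promoters separated the members into 3 groups. A promoter peak was one that overlapped the 1 kb on either side of a start site, and its rank was the percentile of its score within its own list (100 is the highest score), since scores of separate lists are not on one scale. In all 4 lists, 15 members had a promoter peak (46.9%, against 47.7% of all genes). In no list did 11 members have one (34.4% against 47.7%). The remaining 6 members had one in some lists only (18.8% against 4.6%), namely Tnfsf4, Tnfsf8, Tnfsf13b, Tnfsf18, Tnfrsf9 and Tnfrsf10b. Per list, members with a promoter peak numbered 16 in both Control and IFNγ (50%, against 50.6% and 49.2% of all genes) and 19 in both lists with PJ34 (59.4%, against 50.5% and 49.7%).

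Among the receptors, those for TNF itself stood at the top of the lists. The promoter peak of Tnfrsf1a (TNFR1, the death domain receptor of TNF) had percentiles of 98.6 in Control, 99.9 with IFNγ, 98.5 with PJ34 and 99.5 with IFNγ+PJ34. It was broad in every list, at 6531, 7581, 6962 and 7127 bp, so its rank and width were highest with IFNγ alone. Tnfrsf1b (TNFR2, the TRAF-binding receptor of TNF) had percentiles of 99.8, 99.4, 97.3 and 96.2. The peaks of its promoter region covered 9325 and 9255 bp without IFNγ (Control and PJ34) and 7650 and 6890 bp with it (alone and with PJ34).

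Tnfrsf14 (HVEM, the receptor of LIGHT) followed at 98.3, 94.8, 94.1 and 89.7, and Tnfrsf11a (RANK) at 95.5, 86.3, 87.5 and 84.3. For both, Control was the highest list. Tnfrsf21 (DR6, a death domain receptor) stood at 70.2, 46.7, 56.3 and 57.4, and Tnfrsf23, a decoy receptor for TRAIL, at 69.8, 50.4, 60.9 and 45.6, again highest in Control. Its neighbour Tnfrsf26 had 72.5, 55, 65.3 and 82.9, with IFNγ lowest and IFNγ+PJ34 highest. Tnfrsf12a (Fn14, the receptor of TWEAK) went the other way, at 50.7 in Control, 76.7 with IFNγ, 70.3 with PJ34 and 61 with IFNγ+PJ34.

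In no list did the other 10 receptors with a constant state have a promoter peak. They were Tnfrsf4 (OX40), Tnfrsf18 (GITR), Tnfrsf8 (CD30) and Tnfrsf25 (DR3), which are known from lymphocytes, the BAFF and APRIL receptors Tnfrsf13b, Tnfrsf13c and Tnfrsf17, which are known from B cells and plasma cells, and the decoys Tnfrsf11b and Tnfrsf22 with Tnfrsf19. Tnfrsf9 (4-1BB) had a promoter peak in IFNγ at the bottom of the list (percentile 0.723) and in PJ34 at 38.2, and none in Control or IFNγ+PJ34. Tnfrsf10b (DR5, the death receptor of TRAIL) had a 229 bp promoter peak in PJ34 at 25.3 and in IFNγ+PJ34 at 8.96.

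Among the ligands, Tnfsf12 (TWEAK) had promoter percentiles of 96.3 in Control, 85.4 with IFNγ, 90.8 with PJ34 and 94.4 with IFNγ+PJ34. Its promoter region was covered over 7606 bp in Control, by 1 peak, and over 3043, 4444 and 5619 bp in IFNγ, PJ34 and IFNγ+PJ34. The read-through gene Tnfsfm13 shares this peak and is no separate measurement. Tnfsf13 (APRIL, a B cell survival factor) lies next to it and had 84.3, 65.2, 78.4 and 87.3, lowest in IFNγ. Tnfsf15 (TL1A) had low values of 45.1, 38.4, 42.5 and 21.9.

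Tnfsf10 (TRAIL, the ligand of the death receptor DR5) was higher in both lists with IFNγ, at 64.5 in IFNγ and 73.6 in IFNγ+PJ34 against 49.1 in Control and 48.6 in PJ34. The peaks of its promoter region covered 1203, 1270, 655 and 1285 bp with Control first, then IFNγ, PJ34 and the pair of agents, so PJ34 alone had the least. Tnfsf14 (LIGHT) was at 50.7 in Control, 41.2 with IFNγ, 25.3 with PJ34 and 66.2 with IFNγ+PJ34. Tnfsf9 (4-1BBL, a costimulatory ligand for T cells) was at 84.6, 91.4 and 89.6 in Control, IFNγ and PJ34 but at 67.3 in IFNγ+PJ34, where the peaks of its promoter region covered 985 bp, against 3927, 4313 and 4271 bp.

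The ligands with a promoter peak in only some lists were mostly weak. Tnfsf8 (CD30L) had percentiles of 26.9 in Control, 15.3 in PJ34 and 56.4 in IFNγ+PJ34, with no promoter peak in IFNγ. The Control and IFNγ+PJ34 peaks had intronic summits, 1.35 and 1.33 kb from the start, and only reached into the promoter window. The region at the start itself (0.24 kb) had 19.9 in Control and 15.6 in IFNγ+PJ34, and no peak in the other lists. Tnfsf18 (GITRL) had a promoter peak in IFNγ+PJ34 alone, at 21.9, and Tnfsf13b (BAFF, a B cell survival factor) likewise at 8.96. Tnfsf4 (OX40L) had one in PJ34 alone, at 5.78.

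**Figure D2:**
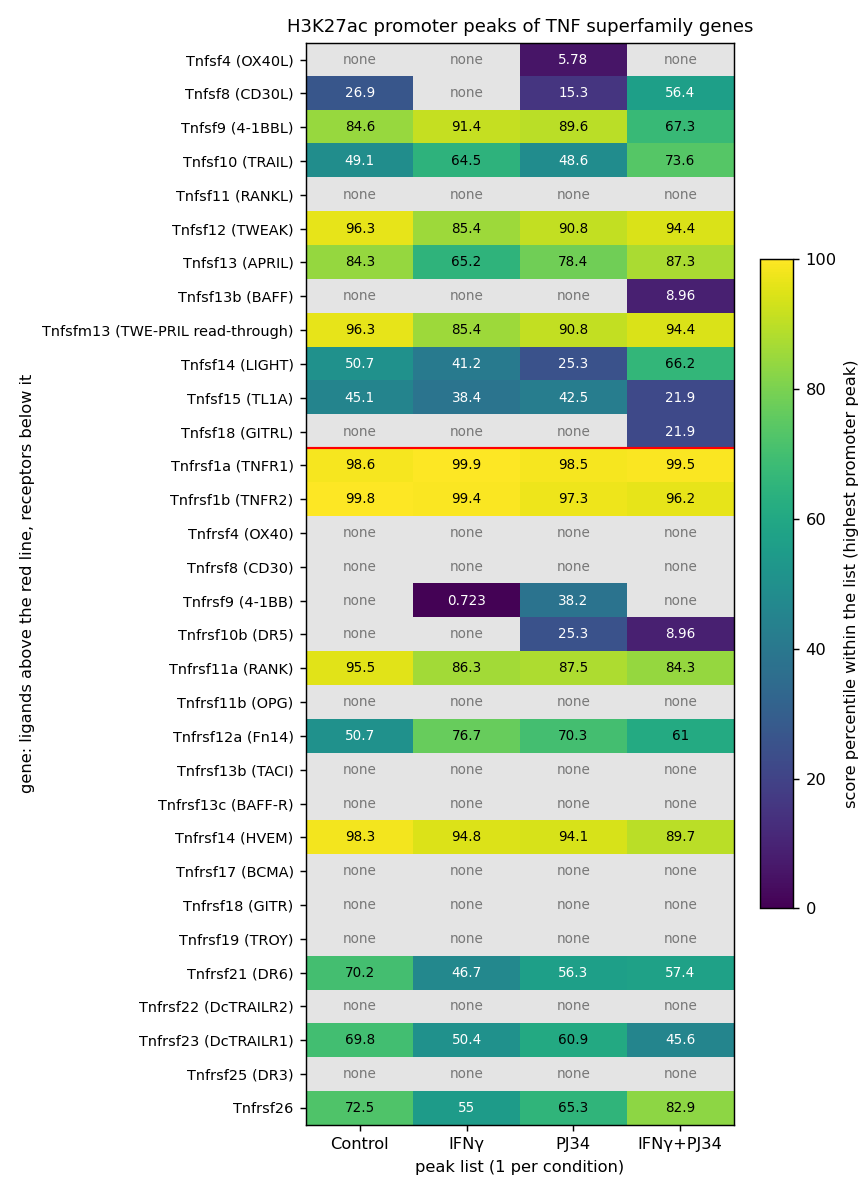
Score percentile of the highest promoter peak (color, and printed in each cell) for each gene (rows, ligands above the red line) in each of the 4 peak lists (columns). Grey cells have no peak within 1 kb of a start site, and 6 rows mix grey and colored cells.

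Over the members with a promoter peak in both lists compared, ranks were lower with either agent than in Control. IFNγ minus Control gave a median difference of -9.17 percentile points over 15 members, 4 higher and 11 lower, where all 10613 genes gave -1.38 and 36.5% of them were higher. PJ34 minus Control gave -5.49 over 16 members, 2 higher and 14 lower, against 0.748 over all genes, of which 58.8% were higher. In the presence of IFNγ, adding PJ34 moved the median by -0.441 (7 higher, 8 lower) against -1.25, with 40.3% of genes higher. In the presence of PJ34, adding IFNγ moved it by 1.01 (9 higher, 8 lower) against -4.22, with 26.5% of genes higher. These comparisons share lists with each other, and Tnfsf12 and Tnfsfm13 count the same peak. Member promoters also started lower, with a median percentile of 78.4 in Control against 85.7 over all genes with a promoter peak. In IFNγ, PJ34 and IFNγ+PJ34 the medians were 71, 65.3 and 67.3 against 84.4, 86.6 and 82. The part of this unlike starting rank in the differences was not tested.

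Which members gained and lost peaks was read from peaks of one list with no overlap of 1 bp or more in the other. Peaks in IFNγ and absent from Control are called IFNγ-gained. Around members they numbered 36 of 190 (18.9%, exact 95% binomial interval 13.6 to 25.3), against 16.8% of the whole IFNγ list. They belonged to 15 of the 32 members, where 25.9% of all genes had such a peak. Median peak numbers per gene are higher around members than over all genes, as given above, and the part of that larger number in the share of members was not tested.

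In the other direction, 40 of 164 Control peaks near members were absent from IFNγ (24.4%, 18 to 31.7), against 31.7% of the Control list, and they touched 17 members, against 43.6% of all genes. PJ34 alone gave 42 of 186 peaks absent from Control (22.6%, 16.8 to 29.3), against 19.5%, at 17 members, against 28.9% of genes. Of the Control peaks near members, 34 (20.7%, 14.8 to 27.7) were absent from PJ34, against 25.1%, at 15 members, against 38.2%.

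With PJ34 added to IFNγ, 56 of 207 peaks near members were absent from the IFNγ list (27.1%, 21.1 to 33.6), against 27.2%, at 20 members, against 38.3% of genes. Conversely, 46 of 190 IFNγ peaks were absent from IFNγ+PJ34 (24.2%, 18.3 to 30.9), against 24.1%, at 14 members, against 34.1%. Set against PJ34, IFNγ+PJ34 had 54 peaks of its own near members (26.1%, 20.2 to 32.6), against 25.7%, at 19 members, against 34.5%. Finally, 47 of 186 PJ34 peaks were absent from IFNγ+PJ34 (25.3%, 19.2 to 32.1), against 31.6%, at 17 members, against 39% of genes. In 7 of the 8 comparisons the interval of the members' share held the share of all other peaks of the list. The exception was Control peaks absent from IFNγ, where the 31.8% of the other peaks lay just above the upper bound of 31.7. Control peaks near members were also wider than those of the whole list, with medians of 832 and 732 bp. The part of width in this share was not tested. The intervals cover counting error only and treat neighbouring peaks as independent, which they are not. Within 10 kb instead of 50 kb, between 7 and 10 members had an absent peak in each comparison (21.9% to 31.2%, against 8.37% to 17.8% of all genes). With peaks up to 1 kb apart counted as shared, the Control peaks near members absent from IFNγ and from PJ34 fell to 11.6% and 9.76%, against 20.9% and 15.7% of the whole list. Other comparisons under this rule went both ways. The share near members was above that of the list for PJ34 peaks absent from Control. It was also above it for IFNγ peaks absent from IFNγ+PJ34 and IFNγ+PJ34 peaks absent from PJ34. It was below it for IFNγ+PJ34 peaks absent from IFNγ and PJ34 peaks absent from IFNγ+PJ34. For IFNγ peaks absent from Control the share near members stayed within its interval of 13.6 to 25.3, above the 10.7% of the list.

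**Figure D3:**
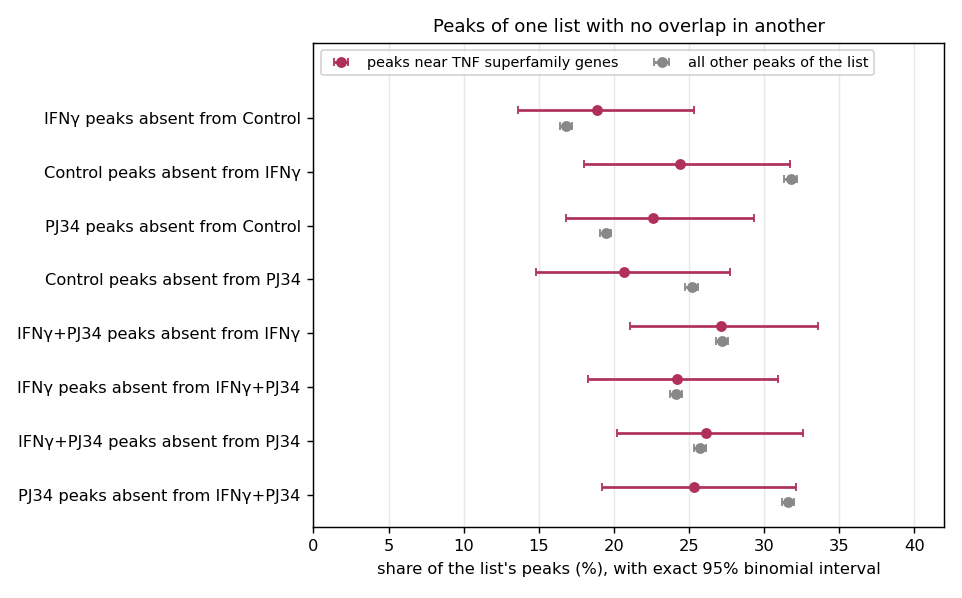
Share of the peaks of one list that had no overlap in another (horizontal axis, percent, with exact 95% binomial intervals), for peaks within 50 kb of a member and for all other peaks of the list, in the 8 ordered comparisons (vertical axis). Shares near members lie between 18.9% and 27.1%, and their intervals are wide because the peaks number between 164 and 207.

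Single loci departed from this average. The ligand genes Tnfsf4 and Tnfsf18 are neighbours on chromosome 1, and both are costimulatory ligands whose receptors, OX40 and GITR, sit on T cells. Around Tnfsf4 (chr1:161395409-161418410) there was 1 peak in Control, 8 with IFNγ, 9 with PJ34 and 17 with IFNγ+PJ34, covering 0.259, 7.69, 5.54 and 11.7 kb. The single Control peak was weak and narrow, at percentile 3.96 and 259 bp. Of the 8 IFNγ peaks, 7 were absent from Control, and of the 9 PJ34 peaks, 8.

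An upstream cluster carried most of this. The region at -41.7 kb (chr1:161351201-161354442) had percentiles of 3.96 in Control, 75.7 with IFNγ, 66.1 with PJ34 and 76.4 with IFNγ+PJ34, with fold enrichments of 2.56, 12.4, 8.05 and 11.5. The region at -18.7 kb (chr1:161375966-161377142) had no Control peak and percentiles of 67.4, 71.2 and 68.9 in IFNγ, PJ34 and IFNγ+PJ34. Both regions were thus present in the 3 treated lists at like ranks.

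A further cluster lay inside and behind the Tnfsf4 gene body and was seen in IFNγ+PJ34 alone. Its highest peak, in an intron at 21.1 kb (chr1:161416262-161417333), had percentile 74.9 and a 15.5-fold enrichment, and those at 5.32 and 20.4 kb had 48.7 and 43.6. At 0.417 kb, the promoter itself had a 213 bp peak in PJ34 only.

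Around Tnfsf18 (chr1:161494655-161505290) the peaks numbered 6 in Control, 11 with IFNγ, 12 with PJ34 and 15 with IFNγ+PJ34, covering 5.38, 8.4, 7.84 and 20.6 kb. The intronic region at 6.01 kb (chr1:161496307-161502422) was in all 4 lists, with percentiles of 72.2, 87.6, 79.4 and 97.9 and fold enrichments of 9.64, 15.6, 15 and 46. The region at 23.2 kb (chr1:161517572-161520252) had no Control peak and percentiles of 80.2 with IFNγ, 46 with PJ34 and 96.2 with both. At 17.3 kb the values were 24.3, 15.3 and 80.3 in the same 3 lists. In each of these regions IFNγ+PJ34 ranked highest and IFNγ ranked above PJ34.

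Other Tnfsf18 regions were called in IFNγ+PJ34 alone. The highest were at 13 kb (chr1:161506531-161508633, percentile 74.9, 13.1-fold enrichment) and at -12.6 kb (chr1:161481766-161482340, percentile 66.7, 11.2-fold). The promoter peak that covers the sequence shown above was among them. The region at 33.4 kb ranked alike in the 4 lists, with percentiles of 69.8, 69.8, 73.2 and 76.4.

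**Figure D4:**
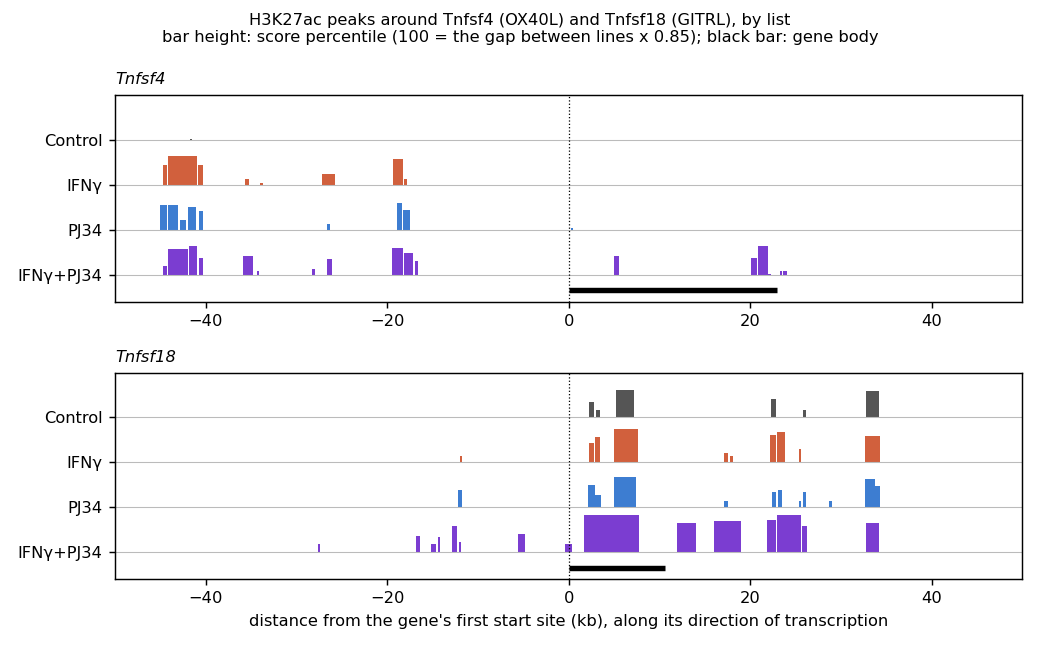
Peaks around Tnfsf4 and Tnfsf18 by distance from the start site along the direction of transcription (horizontal axis, kb), with 1 row per peak list. Bars span the peak and their height is its score percentile, and the black bar is the gene body. Control is nearly empty around Tnfsf4, and the bars inside the Tnfsf4 gene body at 20.4 and 21.1 kb are in the IFNγ+PJ34 row only.

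Tnfrsf1a and Tnfsf10 had peaks that followed IFNγ with or without PJ34. Upstream of the TNFR1 gene, the region at -3.64 kb (chr6:125344528-125347258) was intergenic and absent from Control and from PJ34. It had percentile 80.2 in IFNγ and 88.3 in IFNγ+PJ34, fold enrichments of 17.3 and 28.1, and widths of 1642 and 2731 bp. It was the highest of all peaks near members that IFNγ+PJ34 had and PJ34 lacked, and tied by percentile with the Tnfsf18 23.2 kb peak as the highest IFNγ-gained one. The Tnfrsf1a promoter peak next to it was near the top of every list, so the new peak sat beside an element that was already acetylated.

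The TRAIL gene had its IFNγ-gained peaks far upstream, inside an intron of Nceh1 and between the genes. The region at -44.2 kb (chr3:27272329-27274565) was absent from Control and PJ34 and had percentiles of 60.3 in IFNγ and 84.6 in IFNγ+PJ34. The region at -42 kb (chr3:27274695-27275341) had 68.5 with IFNγ, 15.3 with PJ34 and 85.6 with both. The region at -27.9 kb (chr3:27288412-27289884) had 24.3 in IFNγ and 59.4 in IFNγ+PJ34. All 3 ranked higher with PJ34 present than with IFNγ alone. The nearest coding start to the region at -44.2 kb was that of Tnfsf10, although it lies in another gene.

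The peak 23.5 kb downstream of the Fn14 gene Tnfrsf12a (chr17:23652742-23654923) showed the same pattern, at 72.6 in IFNγ and 82.4 in IFNγ+PJ34 and in neither other list. Its nearest coding start is that of Bicdl2.

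The LIGHT gene Tnfsf14 had a mixture of patterns. Regions at -3.94 and -4.61 kb were in all 4 lists and ranked highest in the lists with IFNγ. The first had percentiles of 65.8, 83.7, 71.2 and 88.2, and the other 19.9, 65.2, 50.8 and 71. By contrast, the region at -7.58 kb (chr17:57201070-57202006) was in IFNγ at 57.4 and in PJ34 at 52.9, and in neither Control nor IFNγ+PJ34. The weak peak at -36.5 kb, whose nearest coding start is that of C3, had 24.3 in IFNγ and 31.8 in IFNγ+PJ34.

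The 4-1BBL gene Tnfsf9 lost peaks with the pair of agents together and with neither alone. Its peaks numbered 10 in Control, 12 with IFNγ, 13 with PJ34 and 5 with IFNγ+PJ34, covering 12.2, 11.7, 14.8 and 3.38 kb. Every Control peak near Tnfsf9 was found in IFNγ and in PJ34 (0 absent from either), whereas 7 of the 12 IFNγ peaks and 7 of the 13 PJ34 peaks were absent from IFNγ+PJ34. The region at -7.08 kb (chr17:57096280-57099803) had percentiles of 52.1, 63.8 and 66.8 in Control, IFNγ and PJ34, and the region at 8.05 kb (chr17:57113168-57113964) had 60.6, 48.7 and 79, and IFNγ+PJ34 had no peak at either. The -27 kb region at the promoter of Dennd1c, a neighbouring gene, was in all 4 lists at 95.2, 88.5, 91.1 and 87.9.

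The CD30L gene Tnfsf8 went the other way. It had 13 peaks in Control, 9 with IFNγ, 6 with PJ34 and 17 with IFNγ+PJ34. The region at -7.84 kb (chr4:63868988-63869972) had percentiles of 11.5 in Control and 64.3 in IFNγ+PJ34 and no peak with either agent alone. Of its 13 Control peaks, 5 were absent from IFNγ and 9 from PJ34, and of the 17 IFNγ+PJ34 peaks, 11 were absent from IFNγ and 12 from PJ34. Within 50 kb of Tnfsf13b (BAFF) there were 2, 2, 2 and 5 peaks, and the 3 that only IFNγ+PJ34 had were at percentiles 56.4, 31.8 and 8.96. Those at 56.4 and 31.8 lay in an intron of Abhd13, whose start was the nearest. The one at 8.96 lay at the Tnfsf13b promoter, and the peaks found in every list lay at the promoter of Lig4.

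**Figure D5:**
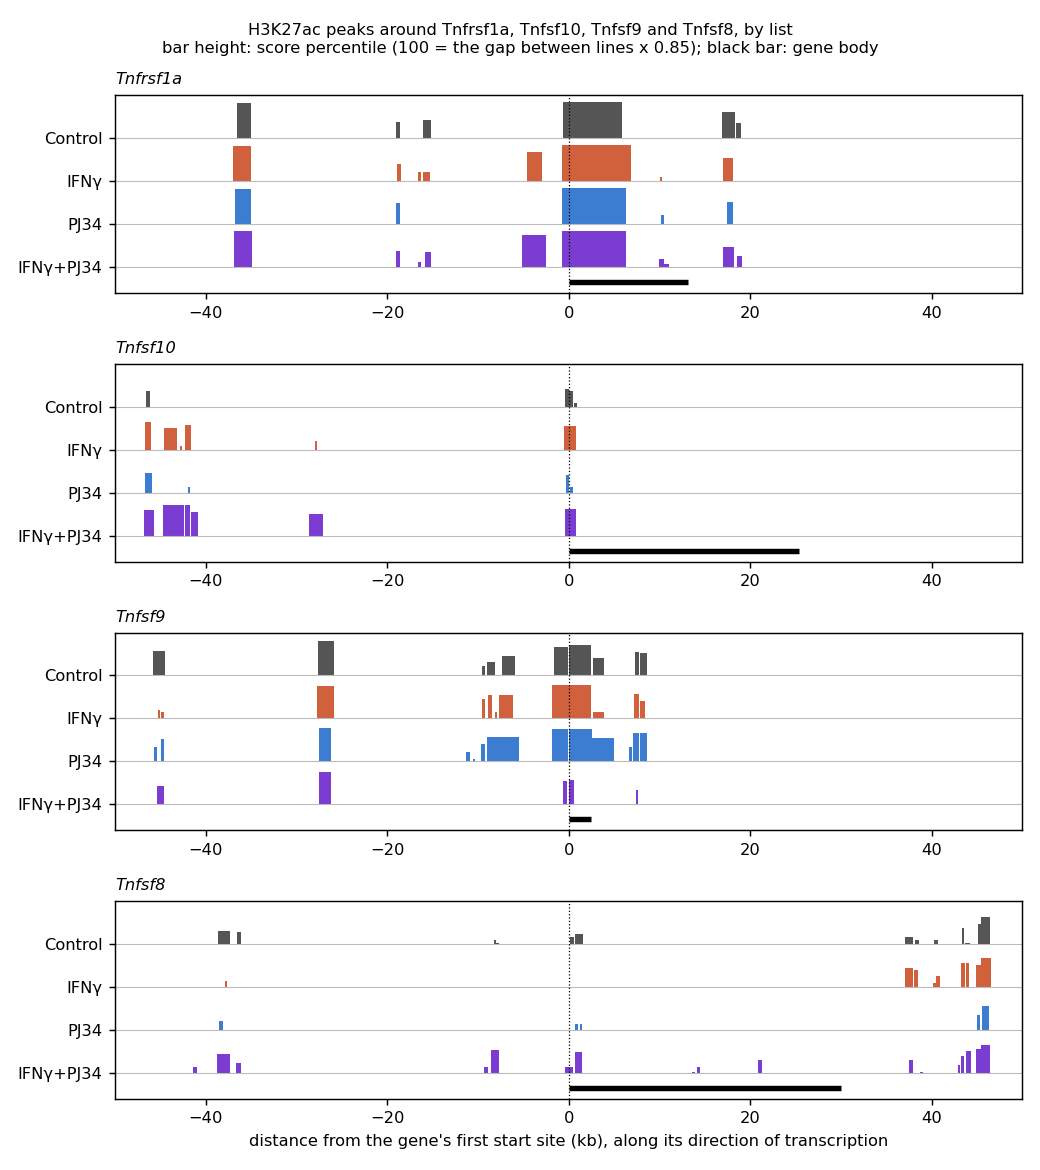
Peaks around Tnfrsf1a, Tnfsf10, Tnfsf9 and Tnfsf8 by distance from the first start site along the direction of transcription (horizontal axis, kb), with 1 row per peak list, bar height for score percentile and a black bar for the gene body. The Tnfrsf1a peak at -3.64 kb and the Tnfsf10 peak at -44.2 kb are in the IFNγ and IFNγ+PJ34 rows only, and the IFNγ+PJ34 row of Tnfsf9 is the sparsest of its 4 rows.

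Around the receptor genes Tnfrsf1b, Tnfrsf8, Tnfrsf11a and Tnfrsf14, peaks covered less sequence in both lists with IFNγ than in Control. This was not particular to them. It also held for other members, among them Tnfsf9, Tnfsf12, Tnfsf13, Tnfrsf13b, Tnfrsf17 and Tnfrsf21. The opposite held for others, among them Tnfsf4, Tnfsf18 and Tnfrsf1a. Tnfrsf1b and the CD30 gene Tnfrsf8 lie next to each other on chromosome 4 and share several regions. Tnfrsf1b had 29, 28, 27 and 29 peaks, but their covered length was 56.4 kb in Control, 38.3 kb in IFNγ, 59.6 kb in PJ34 and 26.4 kb in IFNγ+PJ34. A broad region at -20.5 kb from Tnfrsf1b (chr4:145262342-145271509), which reached into Tnfrsf8, had percentiles of 96, 94, 98.7 and 83.5. Its fold enrichments were 50.3, 28.9, 67.2 and 19. Of the Control peaks near Tnfrsf1b, 11 were absent from IFNγ and 1 from PJ34, and 11 of its IFNγ peaks and 12 of its PJ34 peaks were absent from IFNγ+PJ34. Around Tnfrsf8 the covered length was 21.1, 15.1, 25.2 and 5.62 kb. The lists with IFNγ thus covered less of this locus than those without, and the whole lists covered 52.6, 42.5, 47.9 and 44.1 Mb.

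Around Tnfrsf11a (RANK), the peaks numbered 13, 16, 13 and 15, and their covered length was 22.6, 18.1, 20 and 11 kb. Its promoter region (chr1:105780103-105783923) had fold enrichments of 53.3, 19.2, 27.2 and 23.1, highest in Control. An intronic region at 21 kb (chr1:105801458-105802172) had percentiles of 36.8, 52.2 and 60.9 in the first 3 lists and no IFNγ+PJ34 peak, while one at 32.5 kb was in IFNγ+PJ34 alone, at 61. For HVEM, the Tnfrsf14 covered length was 16.8, 10.8, 12.8 and 7.54 kb, with 4 of its 13 Control peaks absent from IFNγ and 4 from PJ34.

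Merging overlapping peaks of all lists gave 220 regions near members, of 55218 in all. Those in all 4 lists made up 37.3% near members (82 regions, interval 30.9 to 44) and 38.9% of all regions. Those in IFNγ+PJ34 alone made up 16.8% near members (37 regions, 12.1 to 22.4) and 10.4% of all. Of these 37, 17 were nearest to Tnfsf4 or Tnfsf18, and without that pair of genes the share was 20 of 186 (10.8%, 6.69 to 16.1), near that of all regions. Those in the 3 treated lists and not in Control made up 5.45% (12 regions, 2.85 to 9.33) and 1.35% of all. Here 8 of the 12 were nearest to Tnfsf4 or Tnfsf18, and without them the share was 4 of 186 (2.15%, 0.589 to 5.41). The count without this pair was chosen after seeing the data. Those in Control alone made up 7.27% (16 regions, 4.21 to 11.5) and 11.8% of all. Neighbouring regions are not independent, and 24 regions lay near more than 1 member. The nearest coding start was a member's for 144 of the 220 regions (65.5%). By position, 92 regions were intergenic, 71 intronic, 49 at a promoter of any coding gene and 8 exonic.

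Whether IFNγ-gained peaks were also found when PJ34 was present was then counted. The IFNγ+PJ34 list held 23 of the 36 near members (63.9%, interval from 46.2 to 79.2), against 38.7% of the 6806 other IFNγ-gained peaks. PJ34 alone also held 19 of the 36 (52.8%, 35.5 to 69.6), against 43.5% of the others. They divided into 13 found in both lists with PJ34, 10 found in IFNγ+PJ34 and not PJ34, 6 found in PJ34 and not IFNγ+PJ34, and 7 found in neither. Of the 13, 9 were near Tnfsf4 or Tnfsf18, and the 10 held the Tnfrsf1a -3.64 kb, Tnfsf10 -44.2 kb and Tnfrsf12a 23.5 kb peaks described above. Without Tnfsf4 and Tnfsf18, the IFNγ+PJ34 list held 12 of 24 (50%, interval from 29.1 to 70.9) and the PJ34 list 10 of 24 (41.7%, 22.1 to 63.4), so the higher share rested in part on this pair of neighbouring genes. The PJ34 list, which was made without IFNγ, thus held 19 of the 36 IFNγ-gained peaks near members. The interval of that share held the 43.5% of the other IFNγ-gained peaks. Within 10 kb of a start site only 10 peaks were IFNγ-gained, and the IFNγ+PJ34 list held 3 of them (30%, interval from 6.67 to 65.2).

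The ISRE core, an interferon-response motif that has 2 GAAA units spaced 2 bases apart, was searched on both strands. It was in 3 of the 36 IFNγ-gained peaks near members (8.33%), against 8.58% of all 6842 IFNγ-gained peaks. In the 300 bases around the summit, 0 of the 36 had a match, against 5.26% of all. In the RefSeq promoters it was in 4 of 29 member promoters (13.8%), against 3.44% of 32851, at Tnfsf13b, Tnfrsf1b, Tnfrsf14 and Tnfrsf17. A match is a string of letters and not a shown binding site.

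Repeat-masked bases were counted in the same peaks, since reads in repeats are harder to place. The median IFNγ-gained peak near members was 29% repeat-masked, against 16.5% for all IFNγ-gained peaks, and 9 of the 36 (25%) were masked over more than 50% of their length, against 12.8%. Over all peaks of the IFNγ list the medians were 16.2% near members and 13.4% in the list. The part of repeats in these peaks was not tested.

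Ligands and receptors were also set side by side as 15 known pairs. Both partners had a promoter peak in 2 pairs in Control, 3 with IFNγ, 4 with PJ34 and 3 with IFNγ+PJ34, and neither partner did in 6, 7, 5 and 2. Against Control, the lower last number rests on 2 weak ligand promoter peaks and not on separate pairs. The Tnfsf13b peak, at percentile 8.96, counts in the pairs with Tnfrsf13b, Tnfrsf13c and Tnfrsf17. The Tnfsf18 peak, at 21.9, counts in the pair with Tnfrsf18. TWEAK with Fn14 and LIGHT with HVEM were the pairs with both promoters marked in every list. For 4-1BBL and 4-1BB both were marked in IFNγ and PJ34 only, where the IFNγ state rests on the Tnfrsf9 peak at percentile 0.723. That peak has a q above 0.01, and with only peaks of q under 0.01 the IFNγ list had 2 such pairs and the other lists the same numbers. Both were marked for TRAIL and DR5 in the lists with PJ34. RANK was marked in every list without its ligand, while OX40, CD30, GITR, DR3, OPG and the BAFF and APRIL receptors were marked in none.

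The rest of the pathway was nearly constant in presence. All 23 genes of receptor-proximal signalling examined (among them Tradd, Fadd, Traf2, Ripk1, Casp8 and Tnfaip3) had a promoter peak in every list. Of 15 superfamily members with other symbols, 7 had one in Control, 6 with IFNγ, 7 with PJ34 and 6 with IFNγ+PJ34, and the list varied by 1 gene. This was Lta (lymphotoxin alpha), at 97.1 in Control and 82 in PJ34 and with no promoter peak in the lists with IFNγ. Its neighbour Tnf had 97.1, 97.4, 98 and 82.9 in the 4 lists. The Lta values are no separate measurement, since its highest Control peak (chr17:35197983-35204781) and its highest PJ34 peak (chr17:35202053-35204499) also reach the start of Tnf.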

How the data were processed

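H3K27ac ChIP-seq peaks of mouse BMDMs were analysed in 4 lists, 1 for each condition. The authors aligned reads to mm10 with Bowtie, called relaxed MACS peaks in each replicate at a p-value of 0.01 and kept peaks that overlapped in both replicates. The deposited lists give a score from 10 to 1000, a fold enrichment ratio, the −log10 p-value and −log10 q-value, and how far the summit lies from the peak's left edge. The lists hold no counts, so depth is unknown and no test was made. Peaks found in only 1 replicate are not in them, and a peak near the threshold can be lost from a list by either replicate.

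Peaks were assigned to every gene with a start site (GENCODE M21 basic, protein-coding transcripts) within 50 kb of the summit. Promoter peaks overlapped 1 kb on either side of a start site. Shared peaks overlapped by at least 1 bp. Scores were ranked as percentiles within a list, ties averaged, because scores of lists called separately are not on one scale. Shares carry exact Clopper-Pearson 95% intervals. The functions were tested on simulated data, where 6 of 6 checks gave the known answer. Coordinates are 1-based, and sequences came from GRCm38.p6. Python 3.11.15 with pandas 2.3.3 and scipy 1.17.1 was used.

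Every member could be named. Peaks were described by position where they were among the 3 highest of a comparison, and others were chosen after their values were seen to describe a locus. Sequences were taken for the 3 highest IFNγ-gained peaks near members that IFNγ+PJ34 had and PJ34 lacked, a choice made after the values were seen, and for 1 member whose promoter peak varied. 1 other planned motif count is not reported here. The members and gene lists were chosen with earlier results of these data known. Alternatives were other distances, the nearest start, stricter overlap, q under 0.01, the higher-scoring 50% of each list, lists of equal size, a promoter window of 2.5 kb and ranks by fold enrichment.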

Additional observations from a re-analysis of the deposited data

Results flagged for a closer look

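Several results were picked out because the difference that IFNγ made pointed one way without PJ34 and the opposite way with it. With 1 list per condition, the difference between these differences was not tested. The rule asked for a promoter peak in all 4 lists and for both differences to pass 5 percentile points, and 5 promoters met it. How many of all genes meet this rule was not counted, so the number is no result about the members. Over all genes, IFNγ minus Control had a median of -1.38 (5th to 95th percentile -20.4 to 8.24). IFNγ+PJ34 minus PJ34 had a median of -4.22 (-25.5 to 11.4).

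For Tnfsf14 (LIGHT), IFNγ minus Control was -9.43 percentile points and IFNγ+PJ34 minus PJ34 was 40.8, which are 50.2 points apart. Tnfrsf26 had -17.5 and 17.6 (35.1 apart), and Tnfsf13 (APRIL) had -19.1 and 8.85 (28 apart). In the opposite sense, Tnfrsf12a (Fn14) had 26 and -9.3, a difference of -35.3, and Tnfsf9 (4-1BBL) had 6.79 and -22.4, a difference of -29.2.

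Whole regions showed the same kind of pattern. Of the 220 regions near members, 4 were found in IFNγ and PJ34 only, among them the Tnfsf14 region at -7.58 kb. A further 5 were found in Control and IFNγ+PJ34 only, among them the Tnfsf8 regions at -7.84 and -36.4 kb. These differences were not tested either. Over all 55218 regions, such patterns made up 2.7% and 3.64%, against 1.82% and 2.27% near members.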

How the results depend on the processing

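No paired analysis was possible because both replicates of a condition had been merged into its list, and leaving a replicate out could not be done either. Of 276 values recomputed under 12 alternatives, 239 stayed and 37 moved. Counts of members stayed if within 1.5 times, and shares and medians over member promoters stayed if within their interval. None moved with any part of a peak within 50 kb, 100 kb, q under 0.01, lists of equal size, a 2.5 kb promoter window, ranks by fold enrichment, or Tnfsf4 and Tnfsf18 left out, an alternative chosen after seeing the data. Ranks by fold enrichment were recomputed for only 4 values, the median promoter percentiles of members, and the 2.5 kb window for only 12 promoter values. Percentiles of single genes and regions, and the shares of merged regions, are not among the 276 values. Without Tnfsf4 and Tnfsf18 the share of merged regions found in IFNγ+PJ34 alone fell from 16.8% to 10.8%. That found in the 3 treated lists fell from 5.45% to 2.15%.

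Within 10 kb, the members with such a peak numbered 8 (from 15) for IFNγ peaks absent from Control, 10 (from 17) for Control peaks absent from IFNγ, 9 (from 17) for PJ34 peaks absent from Control, 9 (from 15) for Control peaks absent from PJ34, 10 (from 20) for IFNγ+PJ34 peaks absent from IFNγ, 7 (from 14) for IFNγ peaks absent from IFNγ+PJ34, 8 (from 19) for IFNγ+PJ34 peaks absent from PJ34 and 9 (from 17) for PJ34 peaks absent from IFNγ+PJ34. There, the share of absent peaks was 14.7% (from 22.6%) for PJ34 peaks absent from Control, 20.9% (from 27.1%) for IFNγ+PJ34 peaks absent from IFNγ and 13.4% (from 26.1%) for IFNγ+PJ34 peaks absent from PJ34. There, 30% (from 63.9%) of IFNγ-gained peaks near members were found in IFNγ+PJ34. With only peaks whose nearest start is a member's, the members with such a peak numbered 10 (from 17) for Control peaks absent from IFNγ, 13 (from 20) for IFNγ+PJ34 peaks absent from IFNγ, 9 (from 19) for IFNγ+PJ34 peaks absent from PJ34 and 11 (from 17) for PJ34 peaks absent from IFNγ+PJ34. With an overlap of at least 50%, the share of absent peaks was 33.5% (from 24.4%) for Control peaks absent from IFNγ, 35.3% (from 27.1%) for IFNγ+PJ34 peaks absent from IFNγ, 34.2% (from 24.2%) for IFNγ peaks absent from IFNγ+PJ34, 34.8% (from 26.1%) for IFNγ+PJ34 peaks absent from PJ34 and 37.1% (from 25.3%) for PJ34 peaks absent from IFNγ+PJ34. With peaks within 1 kb counted as shared, the members with such a peak numbered 11 (from 17) for Control peaks absent from IFNγ and 8 (from 15) for Control peaks absent from PJ34. There, the share of absent peaks was 11.6% (from 24.4%) for Control peaks absent from IFNγ, 14.5% (from 22.6%) for PJ34 peaks absent from Control, 9.76% (from 20.7%) for Control peaks absent from PJ34, 17.4% (from 27.1%) for IFNγ+PJ34 peaks absent from IFNγ, 16.8% (from 24.2%) for IFNγ peaks absent from IFNγ+PJ34, 19.8% (from 26.1%) for IFNγ+PJ34 peaks absent from PJ34 and 18.3% (from 25.3%) for PJ34 peaks absent from IFNγ+PJ34. In the same order, the whole lists gave 20.9%, 10.5%, 15.7%, 18.3%, 15.6%, 19.2% and 21.5% under this rule. In the higher-scoring 50% of each list, the members with such a peak numbered 10 (from 17) for Control peaks absent from IFNγ, 11 (from 17) for PJ34 peaks absent from Control and 8 (from 15) for Control peaks absent from PJ34. There, the share of absent peaks was 27.6% (from 18.9%) for IFNγ peaks absent from Control, 11.2% (from 20.7%) for Control peaks absent from PJ34 and 34.7% (from 26.1%) for IFNγ+PJ34 peaks absent from PJ34. There, 12 members (from 19) had a promoter peak in PJ34.

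Fewer peaks enter within 10 kb and among the higher-scoring 50%, and a stricter or looser rule for a shared peak changes the number absent by construction. No share over all genes or whole lists is set beside the values for the nearest start, the 50% overlap or the higher-scoring 50%. The same holds for the members under the 1 kb rule and for the IFNγ-gained peaks within 10 kb. These values say how far the results moved and are not results about the members. Depth limits remain unknown, since the lists hold no counts.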

Other observations

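Tnfsf8 and Tnfsf15 are neighbours on chromosome 4 but had different peaks. Tnfsf15 (TL1A) had 2, 3, 3 and 2 peaks in Control, IFNγ, PJ34 and IFNγ+PJ34, where Tnfsf8 had 13, 9, 6 and 17.

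Of the genes around the superfamily, the signalling adaptor Traf1, which binds TNFR2, had promoter percentiles of 93.9, 95.9, 96 and 45.6, with IFNγ+PJ34 lowest. Fas, a death receptor of the superfamily, had 70.2 in Control and 90.2, 81.6 and 86.4 in the treated lists. Ltb (lymphotoxin beta) had 63.3 in Control and 29.9 and 21.9 in the lists with IFNγ, and its PJ34 value of 98 is that of a 6576 bp peak that also reaches the start of Tnf. These genes were picked after their values were seen, and no explanation was examined.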
